A study of Mus musculus with 5 samples.

Results

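The places on the genome where hnRNPA1 was found with and without Zhx1 were compared as 2 lists of ChIP-seq peaks. Every peak of the hnRNPA1 list from control cells (14662 peaks) and of the hnRNPA1 list from Zhx1-knockout cells (51545 peaks) was a member, 66207 of the 89451 peaks in the series. Cells were cardiac progenitor (CP) cells differentiated from 46C mouse embryonic stem cells, a line kept on feeder cells before differentiation. 46C-Ctrl is the study's name for the control cells, which the labels describe no further. In Zhx1-KO, guide RNAs for CRISPR/Cas9 at both the transcription start and the transcription stop of Zhx1 were used to remove the gene from 46C cells, and the labels do not say how many clones the line comprised. Each group had 1 library of formaldehyde-fixed, sonicated chromatin, so no difference between the lines could be tested. A peak list holds no expression, so the CP label could not be checked against marker genes. Each list gives a position and a gene name per peak. Read depth is therefore unknown, and the exact 95% intervals below (Clopper-Pearson for shares) cover counting error alone. Because the control was profiled once, how many of its peaks a second control library would have found is also unknown.

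hnRNPA1 is an abundant nuclear RNA-binding protein that coats new transcripts, represses the use of many exons during splicing and takes part in telomere upkeep and microRNA processing. In ChIP-seq it can be recovered on DNA directly, through nascent RNA or through other proteins, and the lists do not separate these. Zhx1 encodes a nuclear protein with zinc fingers and homeoboxes, and the study asked if its interaction with hnRNPA1 plays a part in transcription in CP cells.

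Positions were shared, in the control only or in KO only, and 7 are shown as sequence. All are from the plus strand of GRCm38 as held by RefSeq, in lower case, with bases that also lie under the peak of the other line in capitals. The first 3 are the shared control peaks that stood highest in the deposited order of the control list. Pex2 is chr3:5860429-5860712 (intergenic, a median of 5 genome copies for its 32-base words), Cdk8 is chr5:146261003-146261259 (intron, 1 copy) and Satl1 is chrX:112370856-112371118 (intron, 3 copies).
Pex2: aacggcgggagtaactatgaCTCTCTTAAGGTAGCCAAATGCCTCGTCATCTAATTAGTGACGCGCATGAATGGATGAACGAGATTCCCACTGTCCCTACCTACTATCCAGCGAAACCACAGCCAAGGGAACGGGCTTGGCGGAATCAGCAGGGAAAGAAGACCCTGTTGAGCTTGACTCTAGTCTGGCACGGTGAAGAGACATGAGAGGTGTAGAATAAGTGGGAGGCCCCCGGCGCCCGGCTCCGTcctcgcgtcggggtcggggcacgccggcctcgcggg
Cdk8: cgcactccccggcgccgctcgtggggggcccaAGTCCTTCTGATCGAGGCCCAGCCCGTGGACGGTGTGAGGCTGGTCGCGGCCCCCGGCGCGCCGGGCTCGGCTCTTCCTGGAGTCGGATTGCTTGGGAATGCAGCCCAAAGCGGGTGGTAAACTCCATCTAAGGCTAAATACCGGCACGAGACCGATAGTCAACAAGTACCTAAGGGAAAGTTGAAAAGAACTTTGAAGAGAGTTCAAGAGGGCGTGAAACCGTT
Satl1: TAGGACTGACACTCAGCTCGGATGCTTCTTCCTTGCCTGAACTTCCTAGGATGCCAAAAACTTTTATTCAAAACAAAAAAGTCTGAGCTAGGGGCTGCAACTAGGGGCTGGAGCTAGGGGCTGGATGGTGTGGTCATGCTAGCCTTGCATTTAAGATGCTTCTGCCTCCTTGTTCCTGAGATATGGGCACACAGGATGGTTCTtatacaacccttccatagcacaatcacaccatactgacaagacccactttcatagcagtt

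The Pex2 and Cdk8 stretches, named for a peroxisome assembly factor and for a Mediator kinase, read as pieces of 28S ribosomal RNA. That reading is general knowledge and not a match made here, since a full 28S sequence was not used. The KO peak covered 228 of the 284 bases at Pex2, 225 of 257 at Cdk8 and 203 of 263 at Satl1. The Satl1 stretch holds TAGGG, the DNA form of the RNA word that hnRNPA1 favours, 3 times.

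The next 2 are shared single-copy positions named for developmental regulators of the gene lists used below. Irx3, a homeobox factor of the developing heart and limb, is chr8:92047938-92048233 in intergenic sequence. Smad5, which carries BMP signals, is chr13:56749664-56749886 in intergenic sequence.
Irx3: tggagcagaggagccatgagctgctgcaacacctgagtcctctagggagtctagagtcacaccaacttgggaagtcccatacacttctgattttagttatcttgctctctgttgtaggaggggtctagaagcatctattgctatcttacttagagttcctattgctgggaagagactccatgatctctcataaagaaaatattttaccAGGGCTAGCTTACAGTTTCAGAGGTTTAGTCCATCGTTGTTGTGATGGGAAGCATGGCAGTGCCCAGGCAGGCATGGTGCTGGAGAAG
Smad5: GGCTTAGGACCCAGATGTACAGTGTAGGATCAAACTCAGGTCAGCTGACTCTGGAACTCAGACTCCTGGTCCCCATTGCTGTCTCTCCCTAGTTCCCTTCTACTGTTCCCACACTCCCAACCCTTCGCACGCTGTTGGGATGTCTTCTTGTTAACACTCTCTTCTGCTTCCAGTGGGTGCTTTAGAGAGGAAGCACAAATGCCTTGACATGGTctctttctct

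The overlap covered 88 bases at Irx3 and 213 at Smad5. The last pair shows a peak of each line with no partner in the other. Tnnt2, which encodes cardiac troponin T, had a control-only peak over coding sequence at chr1:135847847-135848069, 1.49 kb from an annotated transcript start inside the gene. Hand2, a transcription factor of the right ventricle and limb, had a KO-only peak at chr8:57324688-57324911, 0.567 kb from a start of its antisense partner Hand2os1.
Tnnt2, control only: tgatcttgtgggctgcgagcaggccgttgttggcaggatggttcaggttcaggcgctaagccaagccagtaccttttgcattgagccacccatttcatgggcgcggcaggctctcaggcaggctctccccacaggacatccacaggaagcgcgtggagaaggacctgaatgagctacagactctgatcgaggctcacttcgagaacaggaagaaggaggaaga
Hand2, KO only: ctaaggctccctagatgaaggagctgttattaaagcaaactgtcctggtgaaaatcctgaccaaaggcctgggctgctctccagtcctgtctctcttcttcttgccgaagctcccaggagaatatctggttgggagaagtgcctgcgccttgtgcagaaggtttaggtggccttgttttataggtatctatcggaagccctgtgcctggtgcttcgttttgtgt

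The targeted gene was looked at first. No control peak was named Zhx1, and 1 KO peak was, in intergenic sequence at chr15:58079153-58079376. An hnRNPA1 list without a peak in Zhx1 in the control cannot check the knockout label. No peak of either line was named Hnrnpa1, although 1 KO peak with another name, Gm5643, had the Hnrnpa1 start as its nearest (chr15:103242997-103243346). Among the genes the study followed up, Mef2c had 2 control and 5 KO peaks, Src 3 and 3, and Epas1 4 and 6, with no position shared among these 9 control peaks. Over all control peaks the shared share was 4.41%, so a count of 0 among 9 says nothing particular about these genes. In the paper, Zhx1 loss weakened the hnRNPA1 ChIP-seq signal at the promoters of these 3 genes. ChIP of single promoters there gave the loss for Mef2c and Src only. The counts here take every peak with the name. No Mef2c peak of either line lay within 2 kb of a start. Src had such a peak in the control only, at 0.092 kb, and Epas1 had 1 in KO only, at 1.52 kb. Per 1000 peaks of each list, the control-to-KO ratio was 1.41 (0.134 to 8.59) for Mef2c, a MADS-box factor of the early heart. It was 3.52 (0.471 to 26.2) for Src, a tyrosine kinase, and 2.34 (0.487 to 9.88) for Epas1, a hypoxia-inducible factor. All these intervals include 1.

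The lists differed in length, width and sequence. The KO list was 3.52 times as long as the control list and covered 0.591% of the assembled genome against 0.158%. Peaks were narrow, with a median width of 257 bp in the control (223 to 831) and 271 bp in KO (224 to 1681). At the smallest width stood 33.7% of control and 28.0% of KO peaks. Sequence was called multi-copy where the 32-base words of a peak had a median of 2 or more occurrences in the assembly. This held for 24.5% of control and 31.4% of KO peaks. Median GC content was 46.7% in the control list and 48.3% in KO, above the 41.7% of the chromosomes.

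Few positions were common to both lines. Of the control peaks, 646 overlapped a KO peak by at least 1 bp, which is 4.41% (4.08 to 4.75%), and 14016 were found in the control only. Seen from the longer list, 647 KO peaks (1.26%, interval 1.16 to 1.35%) met a control peak and 50898 did not. The shared peaks lay well on top of each other in most cases: 481 of 646 overlapped by at least 50% of the shorter peak, and the median overlap was 206 bp. The centres were within 100 bp in 335 pairs. The same gene name was given to both peaks in 640 of the 646 pairs. Over all control peaks, the shared ones included, the median distance to the nearest KO peak was 12.5 kb. Of these peaks 10.4% lay within 1 kb of a KO peak and 43.8% within 10 kb.

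How exactly the positions coincided depended on the copy number of the sequence. Control and KO peaks were paired by the distance between their centres, in bins of 200 bp out to about 5 kb. Where both peaks were multi-copy, the central bin held 247 pairs, against a mean of 33.1 (18 to 51) in the bins 1 kb or more away, a ratio of 7.46. Where both peaks were below 2 copies, the central bin held 77 pairs, against a mean of 46.9 (31 to 60), a ratio of 1.64. The single-copy pairs thus showed a small rise at the centre, above the highest of the distant bins, and the multi-copy pairs a tall one. The single-copy bin at 400 bp, with 62 pairs, also stood above the highest distant bin. The multi-copy bins next to the centre, with 105 and 86 pairs, were also raised.

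**Figure D1:**
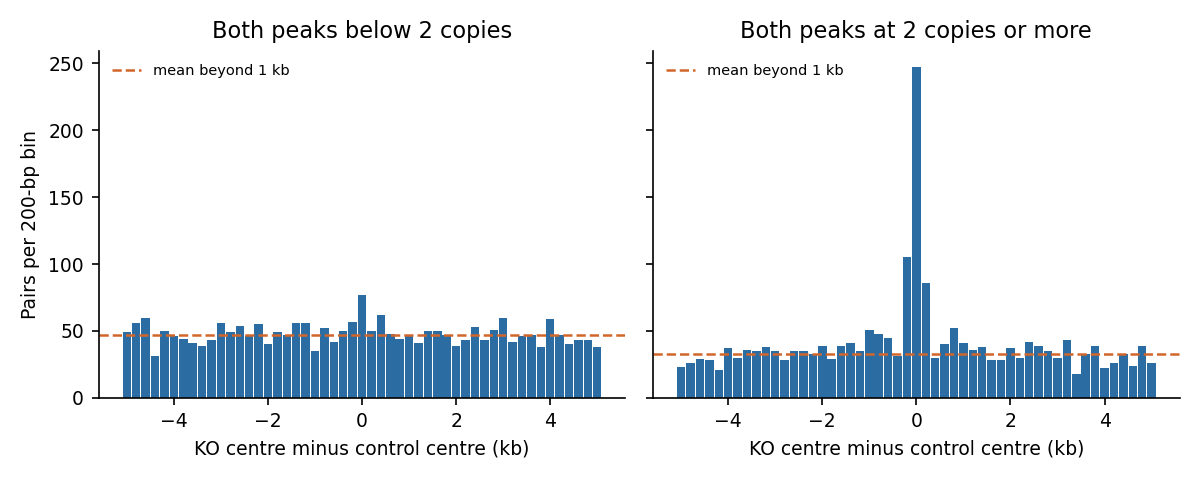
Pairs of a control and a KO hnRNPA1 peak by the distance from the control centre to the KO centre (kb, bins of 200 bp), for peaks below 2 copies (left) and at 2 copies or more (right); the dashed line is the mean of the bins at least 1 kb from the centre. The central bar reaches 77 pairs on the left, above its line at 46.9, and 247 on the right, where the line is at 33.1.

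The share of peaks found again followed the same division. According to the paper, reads without a unique position were removed, so a peak in repeated sequence would rest on reads that still mapped uniquely. The submitters' processing notes name BWA, where the paper names Bowtie2. Whether this filter applies to the deposited lists is therefore not certain. Among control peaks below 2 copies, 197 of 11073 (1.78%, interval 1.54 to 2.04%) met a KO peak. Among multi-copy control peaks, 449 of 3589 did (12.5%, 11.4 to 13.6%). The share stood at 13.4% (11.5 to 15.6%) for 2 to 9 copies, 12.8% for 10 to 99 and 15.05% for 100 to under 1000, with overlapping intervals, and at 9.93% (8.24 to 11.8%) for 1000 copies or more. From the KO side, 0.568% of peaks below 2 copies and 2.75% of multi-copy peaks were found in the control. Multi-copy peaks were therefore 24.5% of the control list but 69.5% of its shared positions. The peaks of both lines were below 2 copies at 188 of the shared positions.

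**Figure D2:**
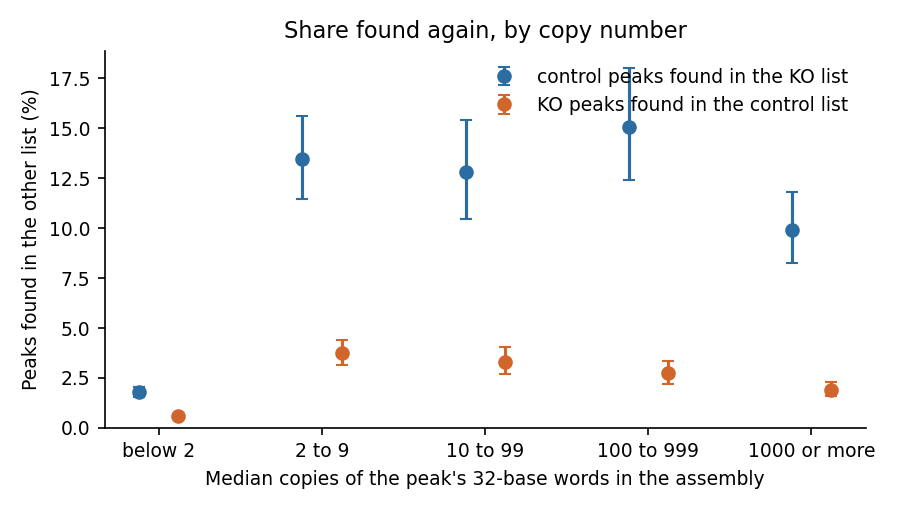
Share of peaks found in the other list (%, linear axis from 0) by the median number of genome copies of the peak's 32-base words; blue points are control peaks and orange points KO peaks, with exact 95% intervals. Control peaks rise from 1.78% below 2 copies to between 9.93% and 15.05% in the other classes, and KO peaks from 0.568% to at most 3.74%.

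Some gene names came up repeatedly at shared positions. Of the 646, 91 fell to 20 names with at least 3 shared positions each. Mir6388 led with 9, then Gm21119, 2410141K09Rik and G530011O06Rik with 7 each, and LOC100861615 and Gm4425 with 6. Multi-copy sequence was frequent here: all 26 control peaks named LOC100861615 and all 20 named Gm4425 were multi-copy, as were 14 of 24 at Mir6388. Vomeronasal receptor genes (Vmn), pheromone receptors that stand in large clusters, held 150 control peaks with 20 shared, 13.3% (8.34 to 19.8%). Olfactory receptor genes (Olfr), also clustered, held 162 with 6 shared, 3.70% (1.37 to 7.89%). Below 2 copies 4 of 41 Vmn peaks (9.76%, 2.72 to 23.1%) and 1 of 91 Olfr peaks (1.10%, 0.0278 to 5.97%) were shared, with overlapping intervals. These families were chosen after the shared names were seen. Within 100 kb of an assembly gap 53 of 365 control peaks were shared (14.5%, 11.1 to 18.6%), against 4.15% elsewhere. Below 2 copies these were 4 of 118 (3.39%, 0.931 to 8.45%) and 1.76%, which the counts do not separate.

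The widest shared positions lay both in repeats and in single-copy sequence. The widest control peak with a KO partner was at D430036J16Rik, chr9:81601108-81601927, and covered 820 bp. Others among the 10 widest were named for the zinc finger gene Zfp825, the neuronal factor Neurod1, the pheromone receptor Vmn2r48, the cytochrome P450 gene Cyp2j13 and Adam11, a membrane protein of neurons. The Neurod1 control peak, chr2:79489538-79490293, met its KO partner, chr2:79489287-79489553, at the edges, in sequence with a median of 99 copies in the control peak. Rn45s, the name for the ribosomal RNA precursor, had 3 control and 4 KO peaks. One pair was shared, at chr17:39848238-39848727 in the control and chr17:39848260-39848695 in KO. Both peaks counted as 1 copy. Ribosomal gene arrays are largely missing from mouse assemblies, and the copy numbers here are those of the assembly and not of the cell.

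Among peaks below 2 copies, called single-copy here, the share found again was higher at promoters than in introns. Within 2 kb of an annotated transcript start, 49 of 1865 single-copy control peaks were shared (2.63%, 1.95 to 3.46%), against 58 of 4191 in introns (1.38%, 1.05 to 1.79%) and 76 of 4266 between genes (1.78%, 1.41 to 2.23%). The promoter and intron intervals do not overlap, while those of promoters and intergenic sequence do. How densely KO peaks lie in each class was not allowed for. Of the 49, 22 lay within 500 bases of a start and 4 also held a ZHX1 peak of the control. In all, 19 single-copy shared positions held a ZHX1 peak. Neither count was set beside all single-copy promoter peaks. The share found again also differed by CpG content. Single-copy control peaks with 3 or more CpG per 100 bases were shared in 36 of 619 cases (5.82%, 4.11 to 7.96%), and those below 1 in 90 of 6329 (1.42%, 1.14 to 1.74%). In the KO list the matching shares were 1.13% and 0.495%.

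Examples at these 49 promoters were chosen after their values were seen. At Psmd11, a proteasome subunit, the control peak lay at chr11:80428688-80429063 and the KO peak at chr11:80428708-80429254, 0.186 kb from the start in the control. At Rhot2, a mitochondrial transport GTPase, the peaks were chr17:25843932-25844333 and chr17:25844133-25844491. At Dkk3, a secreted member of the Dickkopf family, they were chr7:112159002-112159251 and chr7:112159036-112159259, both under 0.1 kb from the start. Nup153, a nuclear pore protein, Map4k4, a kinase of stress signalling, and Smap2 were further members.

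The classes differed less in median GC content than in copy number. Peaks with 3 or more CpG per 100 bases were 21.5% of shared, 6.52% of control-only and 12.4% of KO-only peaks. Below 2 copies these shares were 18.3%, 5.36% and 9.43%. Median GC was 48.2% in shared, 46.6% in control-only and 48.3% in KO-only peaks, and 50%, 47.1% and 48.8% when taken below 2 copies. The median soft-masked share, the part the assembly marks as repeat, was 71.3% in shared peaks against 17.9% and 25.4%. A TAGGG on either strand was present in 33.8% of shared, 35.0% of control-only and 35.3% of KO-only peaks. CCAAT, the NF-Y word, was present in 39.3%, 36.1% and 38.2%. The shares of both words lay within a few percentage points across the classes. At promoters within 2 kb stood 15.02% of shared, 15.2% of control-only and 14.7% of KO-only peaks, which for peaks below 2 copies became 24.9%, 16.7% and 17.6%.

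Single-copy hnRNPA1 peaks were nearly absent from the sex chromosomes in both lines. The X makes up 6.18% of the assembled sequence, yet it held 4 of the 11073 control peaks below 2 copies and 20 of the 35359 KO peaks. Per Mb this was 0.0245 in the control, where the 19 autosomes ran from 3.29 (chromosome 3) to 9.90 (chromosome 11) with a median of 4.44. In KO it was 0.122, against 11.5 to 35.2 with a median of 13.8. The ZHX1 list of the control had the same shape, with 0.0856 on the X against 5.32 to 13.4. Multi-copy peaks were not short on the X. Their density was 0.979 per Mb in the control, against 0.945 to 3.05 on autosomes, and 6.09 in KO, against 4.54 to 9.53. The Y, where most sequence is repeated, held 1 control and 7 KO peaks below 2 copies, beside 28 and 144 multi-copy ones.

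**Figure D3:**
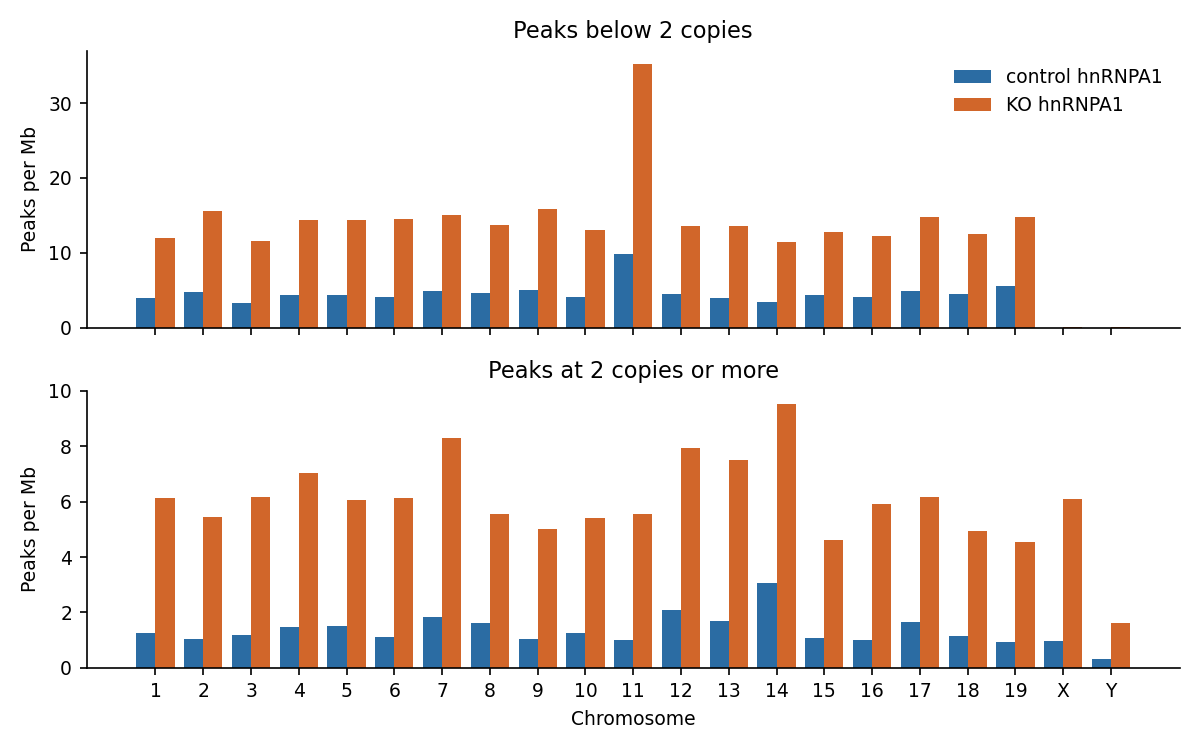
Peaks per assembled Mb on each chromosome, for peaks below 2 copies (top) and at 2 copies or more (bottom), in the control (blue) and KO (orange) hnRNPA1 lists, on linear axes from 0. In the top panel the X stands at 0.0245 and 0.122 beside autosome medians of 4.44 and 13.8, and chromosome 11 is the highest in both lists; in the bottom panel the X lies within the range of the autosomes.

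The share found again also differed between chromosomes. On chromosome 14 it was 70 of 792 control peaks (8.84%, 6.96 to 11.03%), on the X 20 of 164 (12.2%, 7.61 to 18.2%) and on the Y 12 of 29 (41.4%, 23.5 to 61.1%). The other chromosomes ran from 2.47% on chromosome 11 to 5.85% on chromosome 7. The high values moved with copy number: 160 of the 164 control peaks on the X and 28 of the 29 on the Y were multi-copy. Below 2 copies the chromosome 14 share was 2.37% (1.14 to 4.31%), an interval that takes in the 1.78% of all such peaks.

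The share found again differed along the deposited order of the lists, whose meaning the sources do not state and which is not by position. In the first of 10 equal parts of the control list 146 of 1467 peaks were shared (9.95%, 8.47 to 11.6%), in the second 6.07%, in the eighth 2.32%, and in the last 4.43% (3.44 to 5.62%). Of the first 100 rows 24 were shared in the control list and 15 in the KO list. The first part of the KO list held 3.49% (3.01 to 4.03%) shared peaks, and its other parts between 0.640% and 1.40%. Of the shared positions, 146 were in the first part of the control list, 179 in the first part of the KO list and 71 in both.

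Copy number moved along the order as well. Multi-copy peaks made up 48.1% of the first part of the control list, 15.1% of the seventh and 25.7% of the last, and 57.5% of the first part of the KO list. Below 2 copies the shared percentage of control peaks ran from 3.02% (1.92 to 4.49%) in the first part to 1.31% (0.734 to 2.15%) in the fifth, with intervals that overlap. Peaks that also met a ZHX1 peak were 11.8% of the first part of the control list, against 1.70 to 7.09% in the others. The KO list had the same shape, with 4.83% in its first part against 0.931 to 3.05% in the others. Among the first 100 rows, 46 in the control list and 26 in the KO list held a ZHX1 peak, and 84 and 78 were multi-copy. Of the first 10 control rows 9 held a ZHX1 peak, among them those named Txndc11, Pex2, Dtnbp1, Cr2, Filip1l and Cdk8.

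**Figure D4:**
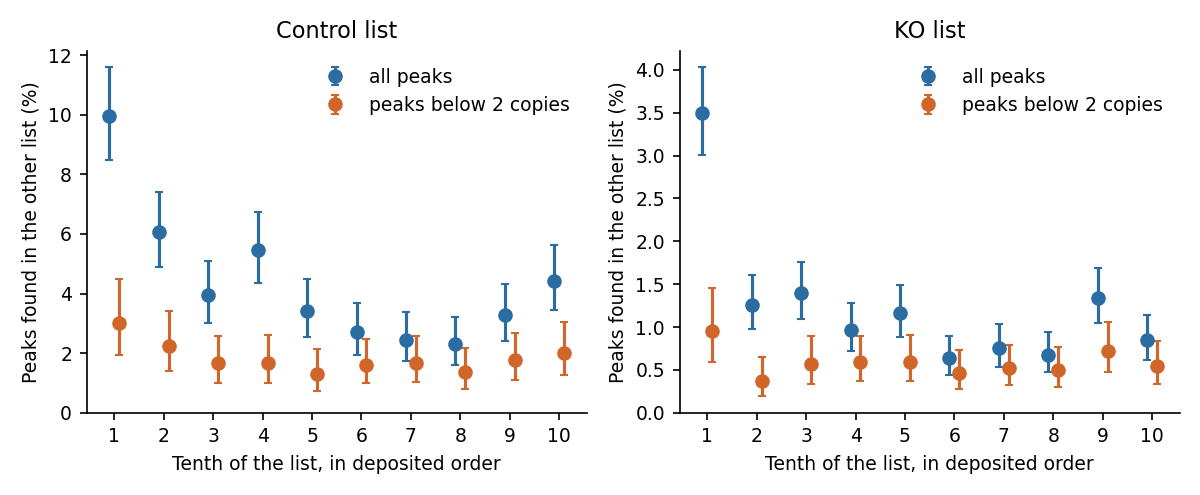
Share of peaks found in the other list (%, linear axes from 0) in 10 equal parts of each list in deposited order, for all peaks (blue) and peaks below 2 copies (orange), with exact 95% intervals; the left panel is the control list and the right panel the KO list. All control peaks start at 9.95%, reach 2.32% in the eighth part and stand at 4.43% in the last, while those below 2 copies stay between 1.31% and 3.02%.

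The lists had a larger percentage of gene names than of positions in common, but names and positions are unlike units. A name can stand for a wide stretch, and 88.9% of control peaks lay within 50000 bp of a KO peak. The share of names that unrelated positions would have in common was not calculated. The counts of names below therefore do not show that hnRNPA1 lay at the same places in both lines. The control list named 8495 genes and the KO list 15388, with 7004 in both, which is 82.4% of the control genes and 45.5% of the KO genes. Only 548 of these genes had a shared position. Length bears on these counts. A KO list thinned evenly to the control length is expected to name 8205 genes and to hold 4437 of the control genes, 52.2%, by exact calculation from the peaks per gene. Of the 1491 genes named in the control only, 1265 rested on 1 peak and none had more than 5. A gene had 1.72 peaks on average in the control and 3.34 in KO.

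For each gene with 5 or more peaks in both lists together, the number of peaks was set per 1000 peaks of its list, and control was divided by KO. Among 4303 such genes 771 were at least 2-fold higher in the control (17.9%) and 1076 at least 2-fold higher in KO (25.0%), of which 699 had no control peak. These 699 passed the minimum of 5 through KO peaks alone, and their ratio of 0 counted as 2-fold. With a floor of 3 control peaks, Spanxn4, which had the most KO peaks of them, was 2.09-fold higher and the next gene 1.80-fold. The 25.0% given beside the gene lists below holds such genes too. Over all 4303 genes the median ratio was 0.879. Most of these folds rest on few peaks. The interval lay above 1 for 76 genes (1.77%), 40 of them without a multi-copy control peak, and below 1 for 15 (0.349%). With so few intervals off 1 among 4303 genes, the genes named next are a description and no single one is shown to differ.

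The genes with the largest ratios toward the control had few peaks each. Blcap, a small protein first described in bladder cancer, had 5 control peaks and none in KO. With the floor set at 3 KO peaks its ratio was 5.86, and its exact interval began lower, at 3.22. Tmem115, a Golgi protein, had 5 and 1, a ratio of 17.6 (1.97 to 831), and so had H1fx, a linker histone, and Dux, a homeobox factor of the early embryo. Of the control peaks 2 were multi-copy at H1fx and 3 at Dux, where 1 was shared. Several genes tied at the next ratio. Tnnt2, cardiac troponin T, had 4 and 1, as did Egfl7, a factor secreted by endothelial cells, Col18a1, a basement membrane collagen, and Tnfrsf21, a death receptor. Each of these had a ratio of 14.1 (1.39 to 692.5), and all their peaks were single-copy. The 4 control peaks of Tnnt2 lay between chr1:135842987-135843344 and chr1:135873977-135874215, and its KO peak lay before them at chr1:135830556-135830830, 0.159 kb from a start. At Egfl7 the control peak chr2:26577107-26577329 met the KO peak chr2:26577287-26577602 in intergenic sequence. Pdgfa, a growth factor ligand, had 5 and 2, a ratio of 8.79 (1.44 to 92.3).

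Grin2a, an NMDA receptor subunit, had more peaks than these. It had 14 control and 14 KO peaks, a ratio of 3.52 (1.55 to 7.96), and no control peak was multi-copy. The 28 peaks spread over the gene and its flanks, from chr16:9424757-9425142 to chr16:10082661-10082883 in the control, and no control peak overlapped a KO peak. The nearest pair was chr16:9882820-9883215 in the control and chr16:9882281-9882793 in KO, neighbours without an overlap.

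The other direction was led by genes without a control peak. Spanxn4, a sperm protein gene, had 22 KO peaks, and 19 of them were multi-copy. With the floor of 3 control peaks it was 2.09-fold higher in KO. The exact interval of its control-to-KO ratio ran from 0 to 0.642. Pcdh18, a protocadherin, had 19 KO peaks, 12 of them multi-copy. Lrfn5, a synaptic adhesion protein, had 16, with 12 multi-copy, and Rgmb, a BMP co-receptor, 16, with 8 multi-copy. Dclk1, a microtubule kinase of neurons, had 14, with 3 multi-copy. The control-to-KO intervals reached up to 0.753 for Pcdh18, 0.912 for Lrfn5 and Rgmb, and 1.06 for Dclk1, which includes 1. Kcnj2, the inward rectifier channel that holds the resting potential of cardiomyocytes, had 1 control and 35 KO peaks, a control-to-KO ratio of 0.100 (0.00247 to 0.598), and 6 of the KO peaks were multi-copy. Kcnj2 lies on chromosome 11, the chromosome with the most single-copy peaks per Mb in both lists. Its control peak and most of its KO peaks were intergenic, and the KO peaks ran from chr11:111075891-111076114 to chr11:111870249-111870504. At the control peak and most of the KO peaks another gene, such as Gm11675, had the nearest start. The count therefore describes a wide stretch that carries the name and not the gene alone.

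**Figure D5:**
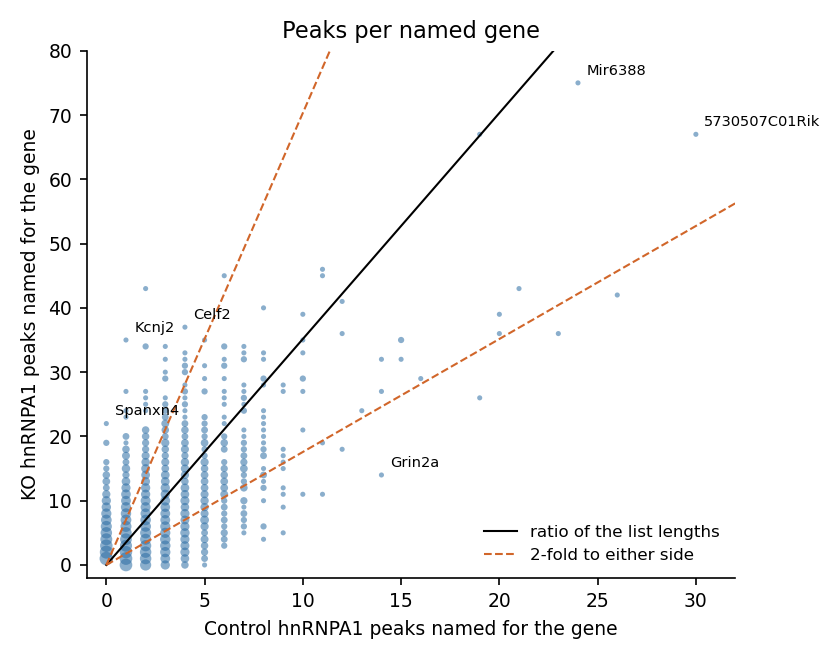
Number of KO hnRNPA1 peaks against number of control hnRNPA1 peaks per gene name (linear axes; larger points stand for more genes), with the ratio of the list lengths as a solid line and 2-fold to either side as dashed lines. Most genes have few peaks in the control; Grin2a, with 14 and 14, lies below the lower dashed line, and Kcnj2, with 1 and 35, above the upper one.

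Several names stood among those with the most peaks in both lines. In the control the leading names were 5730507C01Rik with 30 peaks (67 in KO), LOC100861615 with 26 (42), Mir6388 with 24 (75), 2410018L13Rik with 23 (36) and Gm21119 with 21 (43). Mir6388, 1700030C10Rik and 5730507C01Rik led the KO list with 75, 67 and 67. Lrrc4c, a netrin-G ligand, had 46 in KO and 11 in the control, and Cntnap2, a neurexin relative, 45 and 6. For Btbd35f10, of a cluster on the X, all 43 KO peaks and both control peaks were multi-copy, with a ratio of 0.164 (0.0192 to 0.628).

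For genes of cardiac development the interval of the ratio between the lines included 1. The list of 36 cardiac progenitor regulators had 31 control and 123 KO peaks, a ratio per 1000 peaks of 0.886 (0.577 to 1.32), with 15 genes named in the control and 30 in KO. Isl1, a marker of the second heart field, had 1 control and 15 KO peaks, Tbx5, a factor of the first heart field, 1 and 9, and Hand1, a basic helix-loop-helix factor, 2 and 5. Nkx2-5, a homeobox factor of early cardiomyocytes, had 3 peaks in KO only, Gata4 4, Hand2 2 and Gata6 2. Gata5 and Mesp2 were named in the control only, with 1 peak each. The Mesp2 position, in sequence with a median of 14 copies, met a KO peak that the deposited list gave another name. Of the 13 list genes with 5 or more peaks, 1 was at least 2-fold higher in the control and 4 in KO, where all genes gave 17.9% and 25.0%, and their median ratio was 1.41 beside 0.879 over all genes with 5 or more.

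The 34 contractile and calcium handling genes had 38 control and 139 KO peaks, a ratio of 0.961 (0.653 to 1.38). Ttn, the giant spring of the sarcomere, had 3 and 5, Acta1, skeletal actin, 2 and 2, and Myl4, an atrial light chain, 1 and 3. Myh7, a cardiac myosin heavy chain, Myl7, an atrial light chain, Myom1 and Csrp3 had 1 control peak each and none in KO. Tnni1, Tnni3, Myl2 and Actc1 had 1 KO peak each and none in the control. Kcnj2 alone held 35 of the 139 KO peaks and 1 of the control peaks, Nebl, a protein of the Z-disc, 22 and 4, and Slc8a1, the sodium-calcium exchanger, 19 and 3, all named after their values were seen. Of the 11 with 5 or more peaks, 4 were at least 2-fold higher in the control and 2 in KO, where all genes gave 17.9% and 25.0%. Their median ratio was 1.51, beside 0.879 over all genes.

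The lowest ratio of any list, with an interval that still included 1, was that of RNA processing genes. The 44 hnRNP and splicing genes had 30 control and 151 KO peaks, a ratio of 0.699 (0.456 to 1.04), with 14 named in the control and 30 in KO, and no shared position. Of the 10 with 5 or more peaks none was 2-fold higher in the control and 3 were in KO, with a median ratio of 0.830. Over all genes the shares were 17.9% and 25.0% and the median 0.879, so these values lay near the background. Celf2, a splicing regulator of muscle and brain chosen here after its value was seen, had 37 of the 151 KO peaks, 17 of them multi-copy, and 4 of the control peaks. Ptbp2, the neuronal polypyrimidine tract protein, had 4 and 18, Hnrnpd 2 and 9, and Hnrnpf 1 and 4. Hnrnpa3 and Hnrnpab, close relatives of hnRNPA1, had 3 KO peaks each and none in the control, while Srsf1, an SR protein that acts against hnRNPA1 at many exons, had 2 control peaks and none in KO.

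The 36 genes of the TGF-beta, BMP and Nodal pathway, which direct mesoderm and heart formation, had 35 control and 120 KO peaks, a ratio of 1.02 (0.683 to 1.505). Of the 12 with 5 or more peaks, 4 were 2-fold higher in the control and 3 in KO, with a median ratio of 1.23, against 17.9%, 25.0% and 0.879 over all genes. Bmp2, Bmp4 and Bmp10 stand on the cardiac list too. The pathway genes held 6 shared positions among their 35 control peaks, beside 4.41% of all control peaks. Among the ligands, Bmp5 and Inhba had 1 each, and among receptors Acvr2a, a type II activin receptor, had 2. The Smad proteins that carry the signal to the nucleus gave Smad5 and Smad9, with 1 each. The positions at Bmp5, Inhba and 1 of those at Acvr2a lay in repeats, with medians of 95.5, 3010 and 3060 copies in the control peak. Those at Smad5, Smad9 (chr3:54773904-54774238 in the control, an intron) and the second of Acvr2a (chr2:48763116-48763338, intergenic) had 1 copy. These genes were named after their values were seen, except Bmp5.

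In the Wnt pathway, 38 genes had 30 control and 128 KO peaks, a ratio of 0.824 (0.534 to 1.23), and no shared position. Of the 16 with 5 or more peaks, 3 were 2-fold higher in the control and 6 in KO, with a median ratio of 1.02, against 17.9%, 25.0% and 0.879 over all genes. Wnt3a, a ligand of the primitive streak, had 2 and 3, Wnt4, a ligand of kidney and gonad, 1 and 3, and Wnt3 7 in KO only. For markers of other cells the culture could hold, the ratios were 0.802 (0.403 to 1.48) for pluripotency, 1.12 (0.598 to 2.01) for endothelial, 1.54 (0.535 to 3.95) for smooth muscle, 0.9765 (0.432 to 2.01) for fibroblast and feeder, 1.198 (0.620 to 2.195) for neural and 0.753 (0.322 to 1.57) for endoderm genes. It was 1.23 (0.440 to 3.03) for mesoderm and primitive streak genes, and 2.93 (0.707 to 11.5) for the 6 genes of the Zhx family and NF-Y. No list had an interval that excluded 1.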

How the data were processed

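According to the paper, reads were trimmed with cutadapt 1.18 (reads under 50 bases dropped) and mapped with Bowtie2 2.3.5.1 to GRCm38 (GENCODE release M19). It states that duplicates from PCR and reads mapping to several places were then discarded. BWA 0.7.12-r1039 and deepTools 3.3.0 are named in the submitters' processing notes. Which peak caller and threshold were applied, and whether inputs were used, is not given in the sources. The deposited lists hold positions and gene names, 1 library each, with no score, count or signal. Starts were read as 0-based and are printed 1-based.

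Peaks overlapping by at least 1 bp were shared. Copy number is the median genome count of the 32-base words of a peak on either strand. Features come from GENCODE M21 and sequences from RefSeq GRCm38.p6. A promoter is within 2 kb of any transcript start, and places were assigned in the order promoter, coding, other exon, intron, intergenic. Ratios of peaks per 1000 peaks carry exact conditional intervals. No test was run, since each group had 1 library. The members and gene lists were chosen with earlier results of these data known.

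The rule for named genes took the targeted gene, Hnrnpa1 and the 3 genes followed up in the study, the 10 genes with the most peaks in each list, the 10 with the largest ratio in each direction, up to 4 genes per list and class in list order, and those at the 10 widest peaks of each class. Others were named after their values were seen. The lists covered 13 gene groups. The 2 inputs were not analysed here. Overlap and interval steps were tested on simulated data. Computation was in Python 3.11.15 with pandas 2.3.3 and numpy 2.4.6. Intervals came from scipy 1.17.1, word counts from numba 0.67.0 and plots from matplotlib 3.10.9.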

Additional observations from a re-analysis of the deposited data

How the results depend on the processing

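With 1 library per line, no value has a replicate check, and a longer list can reflect depth, threshold or binding, which cannot be told apart here. No paired analysis was possible because each group had 1 library. Each alternative was compared with the counting interval of the value.

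The share of control peaks found in KO was 3.28% for overlaps of at least 50% of the shorter peak, 5.85% and 10.4% with gaps of up to 250 and 1000 bp, 1.70% below 2 copies in both lists and 1.81% with the widest KO peaks at the control length. From the KO side these were 0.935%, 1.67%, 3.09%, 0.532% and 1.81%. Shares without chromosome 11, or without peaks of the smallest width, stayed within the intervals.

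Of control genes, 71.1% were named in KO by nearest start, 77.9% below 2 copies and 52.2% with the widest KO peaks, and of KO genes 31.5%, 41.8% and 54.1% in the control. The number of genes counted changed with the setting, from 4303 in the main result. Genes higher in the control were 272 of 1367 with the widest KO peaks, 132 of 1376 with at least 10 peaks and 286 of 4303 at 3-fold. Genes higher in KO were 341 of 1367 with the widest KO peaks and 350 of 1376 with at least 10 peaks.

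Promoter shares of shared, control-only and KO-only peaks were 9.91%, 8.87% and 9.44% within 1 kb, 8.36%, 9.92% and 9.69% for protein-coding starts, and 24.9%, 16.7% and 17.6% below 2 copies. Multi-copy shares at 5 copies or more were 57.3%, 18.1% and 26.2%, and without chromosome 11 control-only and KO-only shares were 23.8% and 32.7%. Median GC of shared peaks was 50% below 2 copies. The cause of these shifts was not tested.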

Other observations

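The 4 widest KO-only peaks stood at Erdr1 on chromosome Y (1681 bp), 1700008P02Rik on chromosome 3 (1367 bp, 2280 copies), Erdr1 again (1263 bp) and G530011O06Rik on the X (1259 bp). A KO-only peak of 1111 bp was at Trmu, a tRNA-modifying enzyme, in single-copy sequence, 1.57 kb from a start of Gm49548. The 4 widest control-only peaks were at Pate14 (831 bp, 1 copy), 5730507C01Rik (822 bp), Slc16a14, a transporter (770 bp, 6 copies), and Nrxn3, a presynaptic adhesion protein (746 bp, 1 copy). Peaks named for microRNA genes numbered 523 in the control, with 31 shared (5.93%, 4.06 to 8.31%), and below 2 copies 15 of 429 were shared (3.50%, 1.97 to 5.70%), against 149 of 8741 (1.70%, 1.44 to 1.998%) for genes without a microRNA, receptor, zinc finger or predicted name. Of the 31 shared microRNA peaks, Mir6388 alone held 9, from 24 control peaks. These groups were chosen after the values were seen.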
